A study of Mus musculus with 16 samples.

Results

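The 9 genes described here, Cdh5, Ctnnb1, Cldn5, Ocln, Tjp1, Esam, F11r, Jam2 and Jam3, encode proteins of the adherens and tight junctions of the endothelium and were taken by their symbol from the 54532 genes of the deposited tables. RNA of pulmonary endothelial cells (ECs) was sequenced in bulk 24 h after intratracheal instillation, in a first experiment with WT C57/BL6J mice given saline (n = 4) or 10 mg/kg lipopolysaccharide (LPS, n = 6), and in a second with Fgfr1 loxP/loxP mice (n = 3, labelled wt) and Fgfr1 iΔEC/iΔEC mice (n = 3, labelled cko), all given 2 mg/kg LPS. LPS, which bacteria carry in their outer membrane, is used to injure the lung. Per the study's methods the WT mice were male and 8 weeks old, both Fgfr1 groups received tamoxifen, and the deletion was driven by the tamoxifen-dependent Cre of VE-cadherin-CreERT2 mice, so that only the iΔEC/iΔEC mice carried Cre, under the promoter of Cdh5 itself. To obtain ECs, digested lung was sorted on magnetic beads for CD31 and against CD45. The labels do not say that each library is a separate mouse, so p-values measure the spread between these libraries. Reads on genes numbered 13478726 to 18807007 in the saline libraries, 17840221 to 19043015 in the LPS libraries, 15969575 to 17002788 in the loxP/loxP libraries and 16642177 to 16943522 in the iΔEC/iΔEC libraries. The experiments were deposited as separate tables and differ in dose and genotype, so tests were made only within each. The values are FPKM, in which the fragments on a gene are divided by gene length and by a scaling factor of the library, which here is not its total of reads on genes, and levels of different genes are compared only on this scale.

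Endothelial cells are joined to their neighbours by adherens junctions, built on the cadherin of Cdh5 (VE-cadherin), whose cytoplasmic tail binds β-catenin (Ctnnb1), and by tight junctions, built on claudins such as Cldn5 and on occludin (Ocln), which are tied to actin through the scaffold protein ZO-1 (Tjp1). Immunoglobulin-like adhesion molecules, namely ESAM and the junctional adhesion molecules JAM-A (F11r), JAM-B (Jam2) and JAM-C (Jam3), sit beside the claudins. In the lung these contacts set how much fluid and protein leaves the blood, and opening them is a recognised step of inflammatory oedema. Cdh5, Cldn5 and Esam are known as genes of the endothelium, whereas Ctnnb1 and Tjp1 are used by most cells, Ocln and F11r also by epithelium, and F11r also by leukocytes and platelets.

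All of the 9 genes are protein coding and lie on GRCm38 at chr8:104101625-104144511 (Cdh5), chr9:120929216-120960507 (Ctnnb1), chr16:18776847-18778262 (Cldn5), chr13:100496507-100552718 (Ocln), chr7:65296165-65527781 (Tjp1), chr9:37528078-37538319 (Esam), chr1:171437535-171464603 (F11r), chr16:84774123-84825928 (Jam2) and chr9:27097384-27155421 (Jam3). The strand setting of the counting is not given in the sources used here. Jam3 shares 1159 exonic bases with the antisense gene Gm48796, with a mean of 0.328 FPKM over the saline and LPS libraries, and Ctnnb1 shares 759 with Ulk4 on the other strand, with a mean of 0.049 FPKM, so reads on the shared bases cannot be told apart. Ctnnb1 also shares 23 exonic bases with the microRNA gene Mir7090. The other members share no exonic bases with another gene.

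Of the 9 genes, 5 were found in the RefSeq promoter table for GRCm38.p6, and the promoters of F11r and Tjp1 are shown because these genes stood at the opposite ends of the response to LPS described below. Each run is the 250 bases before the RefSeq start, 5′ to 3′ on the strand of the gene, at chr1:171437311-171437560 (plus strand) for F11r and at chr7:65371245-65371494 (minus strand) for Tjp1. The Tjp1 start is an internal one, within the longer gene model given above. The F11r window ends within the first exon of the model above, which starts earlier. Capitals mark matches to TGANTCA (AP-1) or GGGCGG (GC box) on either strand, and no matches overlap.
F11r promoter: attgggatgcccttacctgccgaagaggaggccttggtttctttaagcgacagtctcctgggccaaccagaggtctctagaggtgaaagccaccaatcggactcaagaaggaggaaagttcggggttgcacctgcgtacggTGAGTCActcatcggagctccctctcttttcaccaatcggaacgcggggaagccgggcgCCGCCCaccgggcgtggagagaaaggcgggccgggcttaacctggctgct
Tjp1 promoter: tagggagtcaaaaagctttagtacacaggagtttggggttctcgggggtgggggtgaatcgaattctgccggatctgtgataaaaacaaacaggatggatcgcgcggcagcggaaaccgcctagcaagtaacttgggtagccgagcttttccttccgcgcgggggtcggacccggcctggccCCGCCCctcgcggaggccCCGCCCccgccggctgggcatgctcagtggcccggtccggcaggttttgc
The F11r window held 1 AP-1 match and 1 GC box, and the Tjp1 window held 2 GC boxes. Over 32851 promoter windows of this length, 6.75% held TGANTCA and 32.7% held GGGCGG. No window of the 5 genes held a match to the NF-kB motif (7.25% of all windows) or to the ETS motif CCGGAAG (6.91% of all windows), which says only that these letters are not in the windows.

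The libraries carried the RNA of the endothelium, with Pecam1, the gene of CD31, at 339 to 516 FPKM in the saline and 234 to 444 FPKM in the LPS libraries. Ptprc, the gene of CD45, stood at 3.53 to 10.99 FPKM in the saline and 22.1 to 52.7 FPKM in the LPS libraries. In saline Cldn5 was the most abundant junction gene, at rank 6 of the 14893 genes tested by mean FPKM, with 1533 ± 893 FPKM (SD, n = 4). It was followed by Cdh5 (709.6 ± 56.0 FPKM, rank 25), Esam (242 ± 50.2 FPKM, rank 117), Ctnnb1 (147 ± 22.2 FPKM, rank 217), Tjp1 (101 ± 13.7 FPKM, rank 358) and F11r (67.9 ± 9.93 FPKM, rank 566). Jam2 (28.3 ± 7.80 FPKM), Ocln (15.4 ± 2.22 FPKM) and Jam3 (2.93 ± 0.631 FPKM) closed the order. No neighbours in this order had overlapping ranges over the 4 saline libraries. The reads behind the values numbered 44050 to 62243 per saline library for Cdh5 and 99 to 224 for Jam3.

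The spread between libraries of a group differed widely among the 9 genes. The coefficient of variation over the saline libraries was 58.3% for Cldn5, 27.5% for Jam2 and 7.90% for Cdh5, and lay between 13.6% and 21.5% for the others. Saline 1 was the highest saline library for 6 of the 9 genes and the lowest for Ocln, Tjp1 and Jam3. This library had the fewest reads, and its summed level of 8 neutrophil markers was 1401 FPKM, against 74.0, 311 and 78.2 FPKM in saline 2, 3 and 4. It was also the highest saline library for the summed epithelial, mural, macrophage, leukocyte, platelet and erythroid markers. In the LPS group LPS 1 was the lowest library for 8 of the 9 genes, Tjp1 being lowest in LPS 2. LPS 1 also had the lowest mean over 10 other endothelial markers, at 6.11 on the scale of log2(FPKM + 1), against 6.79 to 7.19 in LPS 2 to 6.

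**Figure D1:**
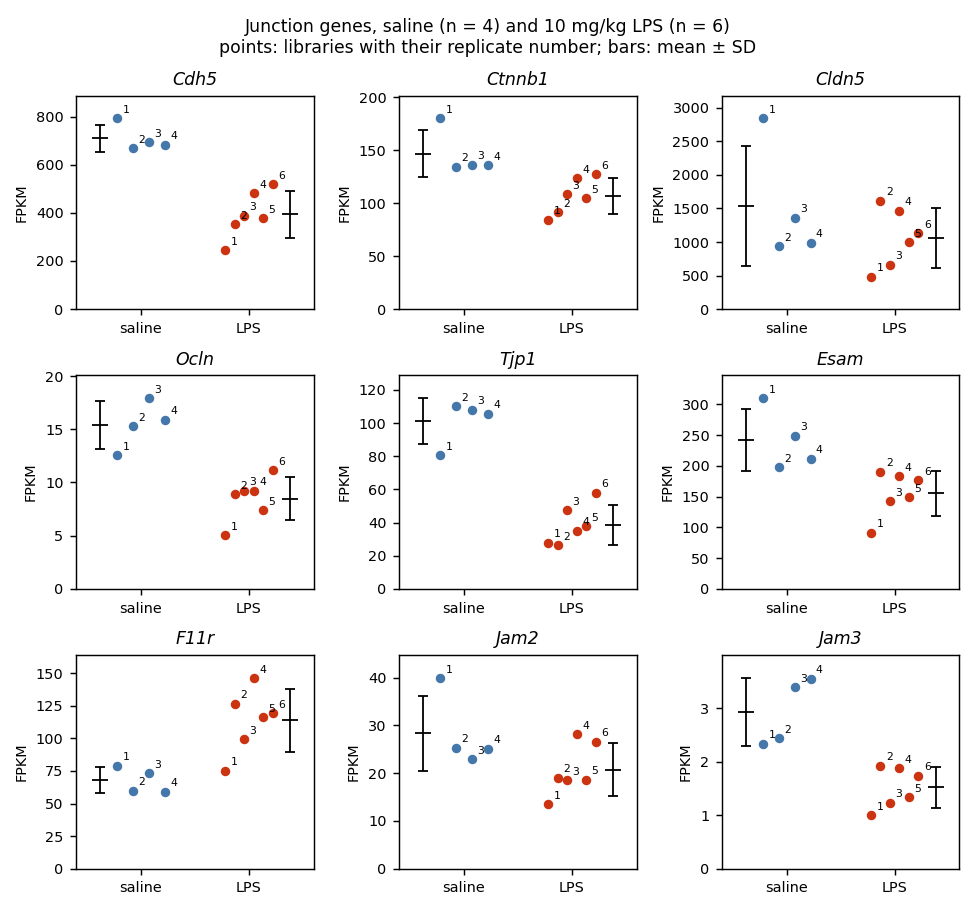
FPKM (vertical axes, from 0) of the 9 junction genes in each saline (blue, n = 4) and LPS (red, n = 6) library, with replicate numbers, and the mean ± SD of each group as bars. The groups stand apart for Cdh5, Ctnnb1, Ocln, Tjp1, Esam and Jam3, all lower in LPS, and overlap for Cldn5, Jam2 and F11r, which is higher in 5 of 6 LPS libraries than in every saline library.

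To ask how the junction genes differed after LPS, log2(FPKM + 1) was compared between the LPS and saline libraries with limma, with Benjamini-Hochberg adjustment over 14893 genes and calls at an adjusted p of at most 0.05. Tjp1, Cdh5, Ocln, Esam, Jam3 and Ctnnb1 fell, F11r rose, and Cldn5 and Jam2 did not pass the test. Thus 6 of 9 members were called lower, where 23.7% of all genes tested were, and 1 was called higher, where 29.5% of all genes were, so that 7 were called in either direction against 53.2% of all genes. Of all genes 4399 were called higher and 3529 lower, a balance that turned with scaling on total reads (3473 higher and 4621 lower, with 7 members lower and 1 higher) and with quantile normalization (3570 higher and 4295 lower, with 8 members lower and 0 higher). In bulk libraries, fewer ECs and less RNA of a gene in each EC cannot be told apart. The median log2 fold change was -0.64 over the 9 genes and 0.01 over all genes tested. With a further limit of 1 on the absolute log2 fold change, Tjp1 alone was called, where 6.79% of all genes were called lower and 11.9% higher, or 18.7% in either direction. The groups did not overlap for 6 members, all lower in LPS, against 16.7% of all genes lower, 22.7% higher and 39.4% in either direction without overlap.

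Among the adherens junction genes, Cdh5 stood at 792, 669, 695 and 682 FPKM in saline 1 to 4. In the LPS libraries it ranged from 245 to 519.9 FPKM with a median of 383 FPKM. The groups did not overlap, and the highest LPS library, LPS 6, lay below the lowest saline library. The mean in LPS was 55.5% of that in saline (394 ± 97.6 FPKM, SD, n = 6). On the log2(FPKM + 1) scale Cdh5 fell by 0.88 (SE 0.22, limma adjusted p = 0.0058; exact permutation p = 0.0095, two-sided and as low as 4 against 6 can reach). Ctnnb1, whose product links the cadherin to α-catenin and actin, read 179.9, 135, 136 and 136 FPKM in saline 1 to 4 and 84.3 to 127 FPKM, with a median of 106 FPKM, in LPS. Saline 1 stood above the other 3, which were nearly equal, and no LPS library reached them. Ctnnb1 fell by 0.46 (SE 0.16, limma adjusted p = 0.028), and its adjusted p was 0.067 without saline 1 and 0.053 without LPS 5.

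Of the tight junction proper, Tjp1 changed most among the 9. Tjp1 stood at 80.8, 110.3, 108 and 106 FPKM in saline 1 to 4. Its LPS values ran from 26.3 to 57.9 FPKM with a median of 36.4 FPKM. All LPS libraries lay below saline 1, the lowest of the saline libraries. The mean in LPS was 38.2% of that in saline, and the log2 fold change was -1.41 (SE 0.22, limma adjusted p = 0.00032), with 2.38% of the genes tested further down. Ocln, the occludin gene, read 12.5, 15.3, 17.9 and 15.9 FPKM in saline and 5.07 to 11.1 FPKM, with a median of 9.07 FPKM, in LPS, and again no LPS library reached the lowest saline library. Ocln fell by 0.81 (SE 0.18, limma adjusted p = 0.0032) to 55.1% of the saline mean.

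Cldn5, the claudin that dominates endothelial tight junctions, did not give a clear difference. Saline 1 held 2842 FPKM, and saline 2, 3 and 4 held 938, 1362 and 989 FPKM. The LPS libraries ran from 481 to 1618 FPKM with a median of 1063 FPKM, so they lay on both sides of saline 2, 3 and 4. The log2 fold change was -0.50 with a 95% interval of -1.42 to 0.42 (limma adjusted p = 0.33), which includes both a fall as large as that of Cdh5 and a rise. Without saline 1 it was -0.15, and after quantile normalization it was -1.09 (limma adjusted p = 0.0061). The sum of the 9 genes, in which Cldn5 weighs most, ran from 2153 to 4339 FPKM in saline and from 1025 to 2472 FPKM in LPS.

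The immunoglobulin-like molecules differed among themselves. F11r, the gene of JAM-A, read 79.1, 59.9, 73.4 and 59.2 FPKM in saline 1 to 4. In LPS it ran from 75.3 to 146 FPKM with a median of 118 FPKM. Only LPS 1 lay within the saline range, and the other 5 LPS libraries were above every saline library. F11r rose to 168% of the saline mean, by 0.72 on the log2 scale (SE 0.18, limma adjusted p = 0.0068, exact permutation p = 0.019), and its change was above that of 80.9% of the genes tested. The call was kept in all 10 fits that left out 1 library, but the difference was 0.14 after quantile normalization (limma adjusted p = 0.47).

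Esam, whose product is an adhesion molecule of endothelium and platelets, read 310.0, 198, 249 and 211 FPKM in saline and 91.2 to 191 FPKM, with a median of 163 FPKM, in LPS. The groups were apart by a narrow margin, since LPS 2 at 191 FPKM lay just under saline 2 at 198 FPKM. Esam fell by 0.65 (SE 0.22, limma adjusted p = 0.028), and the adjusted p was 0.072 without saline 1, 0.064 without saline 3 and 0.051 without LPS 5. Jam2 read 39.9, 25.4, 22.9 and 25.1 FPKM in saline and 13.5 to 28.1 FPKM, with a median of 18.9 FPKM, in LPS. LPS 4 and LPS 6 lay within the saline range, and the difference of -0.44 did not pass the test (95% interval -0.90 to 0.03, limma adjusted p = 0.10), though it did after scaling on total reads (-0.63, limma adjusted p = 0.019) and after quantile normalization (-0.80, limma adjusted p = 0.0056). Without saline 1, its highest library, the difference was -0.27 (limma adjusted p = 0.28). Jam3, the least abundant, read 2.34, 2.44, 3.39 and 3.56 FPKM in saline and 1.00 to 1.93 FPKM, with a median of 1.54 FPKM, in LPS. Its groups did not overlap, and Jam3 fell by 0.64 (SE 0.15, limma adjusted p = 0.0043) on 59 to 106 reads per LPS library, a scale on which the pseudocount of 1 understates the change. The ratio of the means was 51.8%.

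With these changes the order of the 9 levels was altered in LPS. Cldn5 (1058 ± 442 FPKM), Cdh5 and Esam (155 ± 36.8 FPKM) kept the first places, but F11r (114 ± 24.2 FPKM) came before Ctnnb1 (107 ± 17.1 FPKM), and Tjp1 (38.7 ± 12.1 FPKM) followed. The ranges over the 6 LPS libraries overlapped between Cldn5 and Cdh5, between Esam and F11r, between F11r and Ctnnb1 and between Tjp1 and Jam2. Within each LPS library, though, Cldn5 lay above Cdh5, Esam above F11r and Tjp1 above Jam2. Only F11r and Ctnnb1 changed places from library to library, so the order of these neighbours is not settled.

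Ratios of junction genes within a library do not change with a single scaling factor per library. They were chosen after the values were seen and are given as a description. F11r over Esam was 0.255 to 0.303 in the saline libraries and 0.663 to 0.826 in the LPS libraries, 2 ranges far apart. Tjp1 over Cdh5 was 0.102 in saline 1 and 0.155 to 0.165 in the other 3 saline libraries, and 0.0727 to 0.122 in LPS, so saline 1 lay inside the LPS range. Cldn5 over Cdh5 overlapped widely, with 1.40 to 3.59 in saline and 1.70 to 4.60 in LPS.

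**Figure D2:**
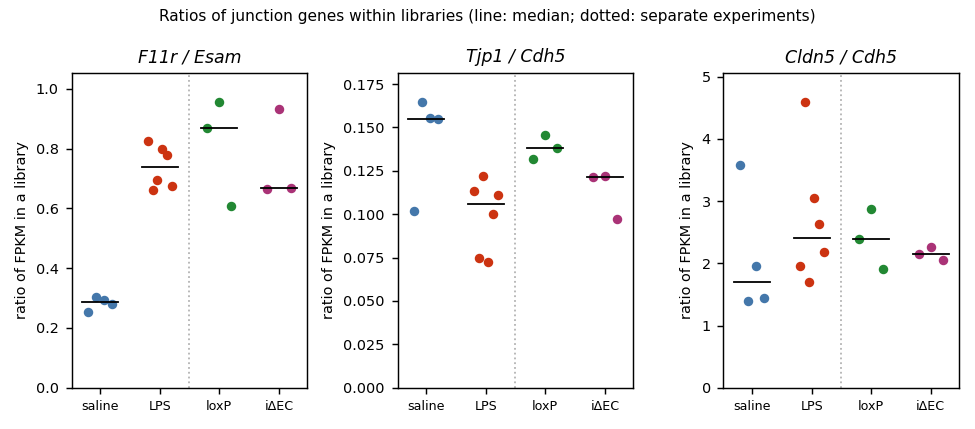
Ratio of FPKM within each library (vertical axes, from 0) for 3 pairs of junction genes, with the group median as a line, and a dotted line between the separate experiments. F11r over Esam is at most 0.303 in saline and at least 0.663 in LPS, and the loxP/loxP and iΔEC/iΔEC mice, all given LPS, lie between 0.609 and 0.957.

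Markers of other cell types and of the endothelium also differed between the treatments. Over the 10 endothelial markers other than Cdh5, 5 were called lower and 0 higher, against 23.7% and 29.5% of all genes. Pecam1, Emcn, Egfl7, Eng and Ramp2 were not called. The list summed to 2664, 2197, 2679.7 and 2292 FPKM in saline 1 to 4 and to 962 to 2046 FPKM, with a median of 1848 FPKM, in LPS. Eng was its most abundant gene in saline and Pecam1 in LPS, and none was at 0. All 6 leukocyte markers, 6 of 8 neutrophil markers and 7 of 8 macrophage markers rose, where 29.5% of all genes were called higher. The macrophage list, led by Lyz2, summed to 1197, 535, 848 and 426 FPKM in saline and to 2227 to 4828 FPKM, with a median of 3801 FPKM, in LPS. The neutrophil list, led by S100a9, summed to 1289.8 to 6653 FPKM in LPS with a median of 2607 FPKM, against 74.0 to 1401 FPKM in saline. Saline 1, the highest of the saline libraries, lay inside the LPS range. The leukocyte list, led by Coro1a, summed to 632 to 1534 FPKM in LPS with a median of 1135 FPKM, against 66.0 to 229 FPKM in saline.

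Cells that share junction genes with the endothelium were read beside it. Of the platelet markers 3 of 5 tested rose, where 29.5% of all genes were called higher. The platelet list, led by Ppbp and Pf4, summed to 19.4 to 48.4 FPKM in saline and to 48.3 to 144 FPKM in LPS, and Gp1bb was listed at 0. Of the epithelial markers 3 of 10 fell and none rose, against 23.7% of all genes called lower and 29.5% called higher. The exact permutation p for the list mean was 0.19. The list, led by Sftpc, summed to 2973, 1390.4, 2232 and 1151 FPKM in saline and to 293 to 1023 FPKM in LPS. Cdh1, the cadherin of epithelium, stood at 2.91 to 9.78 FPKM in saline and 3.50 to 5.37 FPKM in LPS. The parts of these cells in the values of F11r, Ocln, Tjp1 and Ctnnb1 were not tested. Of the other lists, 2 of 5 lymphocyte, 4 of 6 fibroblast and 2 of 7 mural markers tested fell, where 23.7% of all genes were called lower. Of the erythroid markers 3 of 4 tested rose, where 29.5% of all genes were called higher. Exact permutation p for the list mean was 0.076 (lymphocyte), 0.029 (fibroblast), 0.29 (mural) and 0.019 (erythroid).

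When the libraries were scaled so that the 10 endothelial markers had the same mean in each, the direction of Cldn5, Esam, Jam2 and Ctnnb1 turned, and 2 of the 7 calls were left. Tjp1 was lower by 0.74 (limma adjusted p = 0.020), where 6.14% of all genes were called lower, and F11r was higher by 1.39 (limma adjusted p = 4.3e-05), where 46.4% of all genes were called higher. The other values were -0.21 (Cdh5, limma adjusted p = 0.33), -0.19 (Ocln), -0.19 (Jam3), 0.02 (Esam), 0.18 (Cldn5), 0.21 (Jam2) and 0.21 (Ctnnb1). This scaling moved the median of all genes from 0.01 to 0.53 and that of the 9 genes from -0.64 to 0.02. The 10 markers did not move together, and 5 of them were still called after it. Kdr (-0.97), Tek (-0.53) and Tie1 (-0.39) were lower, and Pecam1 (0.50) and Emcn (0.54) were higher. The values under this scaling therefore depend on which markers are in the list.

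**Figure D3:**
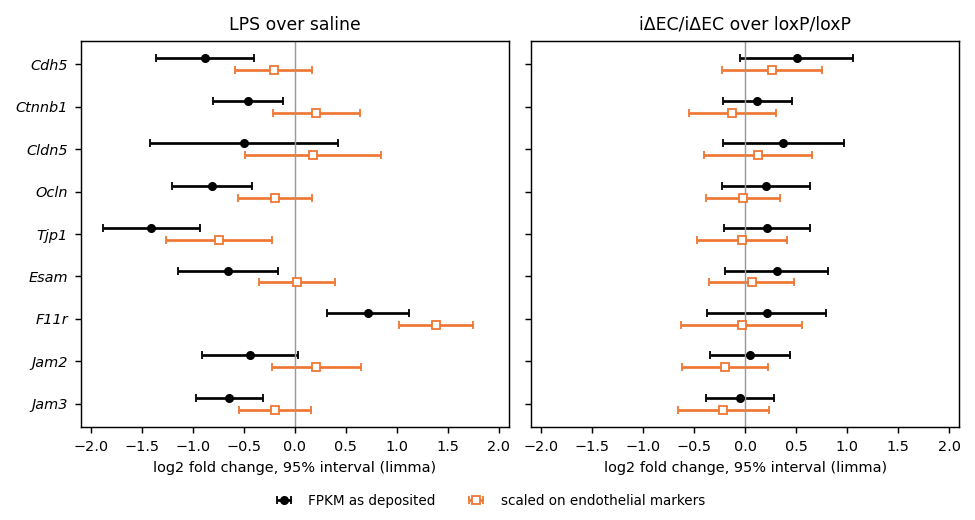
Log2 fold change with its 95% interval from limma (horizontal axes) of the 9 junction genes for LPS over saline (left) and iΔEC/iΔEC over loxP/loxP (right), from FPKM as deposited (filled circles) and after scaling on 10 endothelial markers (open squares). On the left 8 genes lie below 0 with FPKM as deposited, but Cldn5, Esam, Jam2 and Ctnnb1 lie above 0 after the scaling, and on the right every interval includes 0.

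The partners of the junction were taken from 4 lists. Of the adherens junction partners, 12 of 14 genes could be tested, and 7 fell while 1 rose, where 23.7% of all genes were called lower and 29.5% higher. After scaling on the endothelial markers, where 6.14% of all genes were called lower and 46.4% higher, Ptprb, Ptprm and Nectin3 were still called lower and Nectin2 higher, and the other 4 calls were lost. Ptprb, the gene of the vascular phosphatase VE-PTP that acts on VE-cadherin, read 264 ± 24.3 FPKM in saline and 90.5 ± 37.0 FPKM in LPS (log2 fold change -1.62, SE 0.27, limma adjusted p = 0.00051). Ptprm, another receptor phosphatase of cell contacts, was at 43.1 and 16.1 FPKM, and the nectin gene Nectin3 at 8.09 and 2.96 FPKM. Nectin2 rose, from 4.04 ± 1.20 to 6.57 ± 1.63 FPKM (0.59, SE 0.20, limma adjusted p = 0.027). The median over the 12 was -0.65, close to that of the 9 junction genes.

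Of the tight junction partners 20 of 23 were tested, and 10 fell while 1 rose, where 23.7% of all genes were called lower and 29.5% higher, with a median of -0.52. After scaling on the endothelial markers, where 6.14% of all genes were called lower and 46.4% higher, Mpdz and Amotl1 alone of the 20 were called lower, and Tjp3 and Lsr higher. The scaffold genes Amotl1 (22.9 to 9.21 FPKM, log2 fold change -1.29) and Mpdz (6.07 to 2.01 FPKM, -1.25) and the polarity gene Pard6g (26.4 to 14.4 FPKM, -0.87, and -0.23 with a limma adjusted p of 0.25 after that scaling) fell most, while Tjp3, a relative of Tjp1 known from epithelium, rose from 0.553 to 1.77 FPKM (0.84, limma adjusted p = 0.00027). Of 22 further claudins in the table only 6 passed the filter on low values and 4, Cldn14, Cldn16, Cldn17 and Cldn22, were listed at 0. Tjp3 reached the mean of 1 FPKM set for naming a gene only through the LPS libraries, in which it was high. Cldn1 read 0.184 ± 0.101 FPKM in saline and 3.11 ± 2.12 FPKM in LPS (log2 fold change 1.65). Its saline mean lay under the filter of 0.5 FPKM, so it was tested only through the group in which it was high, and no p-value is given. Cldn18, a claudin of alveolar epithelium, fell from 10.8 ± 5.66 to 4.21 ± 1.30 FPKM (-1.11, SE 0.30, limma adjusted p = 0.0085). After scaling on the endothelial markers the Cldn18 change was -0.54 (limma adjusted p = 0.11). Cldn1 and Cldn18 were far under Cldn5 in every group.

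Of the small GTPases and kinases that act on the junction, 19 genes were tested, and 6 rose and 7 fell, where 29.5% of all genes were called higher and 23.7% lower. The median was 0.19. Rap1b, which with its relatives tightens cadherin contacts, rose from 118 ± 28.0 to 319 ± 44.9 FPKM (1.45, SE 0.18, limma adjusted p = 7.7e-05), Cdc42 from 126 to 266 FPKM (1.07) and Ccm2 from 10.6 to 22.5 FPKM (1.01). Heg1, the receptor to which the CCM complex binds, fell from 54.5 to 24.7 FPKM (-1.10), as did the Rap1 effector gene Arhgap29 (58.3 to 29.6 FPKM, -0.98) and the Src family kinase gene Yes1 (10.3 to 6.10 FPKM, -0.69). After scaling on the endothelial markers, 10 of the 19 genes were called, all higher, where 46.4% of all genes were called higher and 6.14% lower. Rap1b, Cdc42 and Ccm2 were among these 10, and Heg1, Arhgap29 and Yes1 were not called. Most leukocyte, macrophage, neutrophil and platelet markers tested were also called higher after LPS, as described above. The part of these cells in the values of the 19 genes and of the other partners was not tested.

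**Figure D4:**
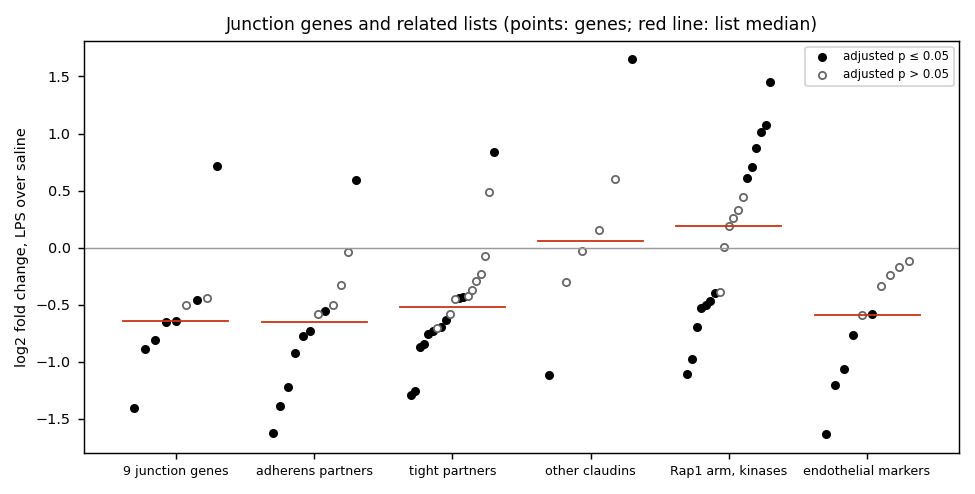
Log2 fold change for LPS over saline (vertical axis) of each gene tested in the 9 junction genes, 4 lists of partners and the endothelial markers, filled where the limma adjusted p is at most 0.05, with the median of each list as a red line. The medians are -0.64 for the junction genes, -0.65 for adherens and -0.52 for tight junction partners, and above 0 for other claudins and for the Rap1 arm and kinases.

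The second experiment asked what loss of Fgfr1, a receptor for fibroblast growth factors, in ECs changed under LPS. Fgfr1 itself stood at 2.90, 2.91 and 2.59 FPKM in loxP/loxP 1 to 3 and at 0.683, 1.41 and 1.15 FPKM in iΔEC/iΔEC 1 to 3, so all libraries followed their label. Limma called 0 of 14944 genes at an adjusted p of at most 0.05, with a smallest adjusted p of 0.73, and 663 genes (4.44%) had an unadjusted p under 0.05. Limma-voom on the read numbers also called 0, with 619 genes at an unadjusted p under 0.05. The share called was thus 0.0% in each direction, and none of the 9 junction genes was called or had an unadjusted p under 0.05 in this unpaired fit. With the replicate number as a block, 0 genes were called and 1150 had an unadjusted p under 0.05. In the unpaired fit the adjusted p of the 9 genes lay between 0.96 and 0.99. Of the 9 genes, 8 had a higher mean in iΔEC/iΔEC mice, with a median difference of 0.21 against 0.01 over all genes. Scaling on the endothelial markers moved these medians to -0.03 and -0.18, and with them 6 of the 9 genes came to lie below 0.

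Cdh5 was the member whose groups stood apart. It read 434, 306 and 414 FPKM in loxP/loxP 1 to 3 and 618, 438 and 581 FPKM in iΔEC/iΔEC 1 to 3. The lowest iΔEC/iΔEC library lay just above the highest loxP/loxP library, where 10.2% of all genes stood apart in either direction, 6.1% higher and 4.07% lower in iΔEC/iΔEC mice. The log2 difference was 0.50 (SE 0.23, 95% interval -0.05 to 1.06, limma adjusted p = 0.96; exact permutation p = 0.10, as low as 3 against 3 can reach). Between libraries of the same number, iΔEC/iΔEC over loxP/loxP was 1.42, 1.43 and 1.40, nearly the same in each pair, and with the number as a block the limma p was 0.018 unadjusted and 0.59 adjusted. The mean over the 10 endothelial markers differed in the same pairs by 0.23, 0.07 and 0.43, and after scaling on them the Cdh5 difference was 0.26. Since only the iΔEC/iΔEC mice carry Cre, presence of the transgene and loss of Fgfr1 cannot be told apart for any gene. For Cdh5 the transgene also uses the promoter of the gene itself.

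The other tight and adherens junction genes overlapped between the genotypes. Cldn5 read 1039, 876 and 789.7 FPKM in loxP/loxP and 1329, 989.6 and 1191 FPKM in iΔEC/iΔEC mice, with ratios of 1.28, 1.13 and 1.51 in the pairs of equal number and a log2 difference of 0.37 (95% interval -0.22 to 0.97), or 0.13 after scaling on the endothelial markers. Ctnnb1 read 123, 115 and 120.3 FPKM against 140.4, 111 and 140.0 FPKM, a difference of 0.12 (95% interval -0.22 to 0.45), which turned to -0.13 after scaling on the endothelial markers. Tjp1, which fell most after LPS, read 57.2, 44.4 and 57.2 FPKM against 75.2, 53.5 and 56.6 FPKM, and its difference of 0.21 (95% interval -0.21 to 0.63) turned to -0.03 under that scaling. For Ocln the values were 9.95, 7.90 and 8.76 FPKM against 12.9, 7.89 and 10.7 FPKM, and the difference was 0.20 (95% interval -0.23 to 0.63), or -0.02 under that scaling.

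Of the immunoglobulin-like genes, Esam read 172, 132 and 128 FPKM in loxP/loxP and 213, 138 and 189 FPKM in iΔEC/iΔEC mice, with a difference of 0.31 (95% interval -0.20 to 0.82). Its ratios in the pairs were 1.24, 1.04 and 1.47, and the difference was 0.06 after scaling on the endothelial markers, whose own mean was higher in each of these pairs. F11r read 149, 127 and 78.1 FPKM against 142, 128 and 126 FPKM, so that loxP/loxP 3 alone set its difference of 0.21 (95% interval -0.38 to 0.80), which was -0.06 without that library. Jam2 (54.0, 48.9 and 38.6 FPKM against 54.5, 41.8 and 49.4 FPKM) and Jam3 (2.63, 2.30 and 1.69 FPKM against 2.01, 2.12 and 2.07 FPKM) differed by 0.05 and -0.05. The 95% intervals of the 9 genes, not adjusted for their number, reach to 1.06 at most, short of the size of the Tjp1 change after LPS (-1.41). Smaller changes are not outside them. The intervals of Cdh5 (to 1.06) and Cldn5 (to 0.97) pass the size of the LPS changes of Cdh5 (-0.88) and Ocln (-0.81).

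**Figure D5:**
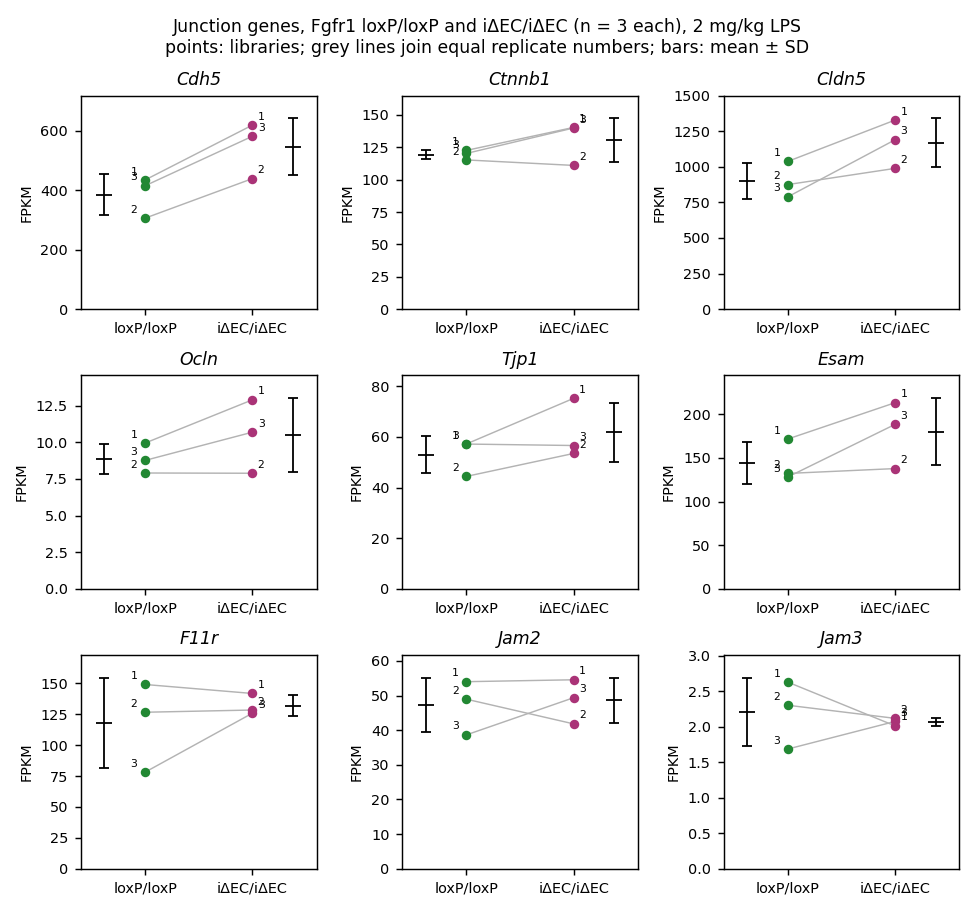
FPKM (vertical axes, from 0) of the 9 junction genes in Fgfr1 loxP/loxP (green) and iΔEC/iΔEC (purple) libraries, n = 3 each, with grey lines between libraries of equal number and the mean ± SD of each group as bars. The groups stand apart for Cdh5 alone, and all 3 lines go up for Cdh5, Cldn5 and Esam.

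None of the partner genes was called between the genotypes, of 12 adherens and 20 tight junction partners, 6 other claudins and 19 genes of the Rap1 arm and kinases, and their median differences were 0.16, 0.08, -0.53 and 0.11. Of the 10 cell type lists none had a called gene, and the largest list difference was that of the epithelial markers, lower by 0.71 in iΔEC/iΔEC mice, with sums of 979.6, 1735 and 2967 FPKM in loxP/loxP and of 498, 1145 and 905 FPKM in iΔEC/iΔEC mice. The part of epithelial cells in the junction values was not tested. Set beside the first experiment, Jam2 stood at 47.2 ± 7.82 FPKM in the loxP/loxP mice, given 2 mg/kg LPS, and at 28.3 ± 7.80 and 20.7 ± 5.55 FPKM in the saline and 10 mg/kg LPS groups of WT mice. These values come from tables normalized separately and from different mouse lines, so dose, genotype and experiment cannot be told apart.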

How the data were processed

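Per the study's methods and the submitters' processing notes, NovaSeq reads were aligned with HISAT2 2.0.5 to GRCm38 (mm10) and assigned to genes by featureCounts 1.5.0-p3, and the authors deposited FPKM with gene lengths for 54532 genes in each of 2 tables. Trimming, strandedness, the annotation release and the tool that made the FPKM are not given in the sources used here. FPKM multiplied by length and divided by the value of 1 read per kb in the same library gave whole read numbers for 100% of the values (tolerance 0.05 reads), and the reads on genes given in the report are their sums. The factors by which libraries were scaled within the FPKM are not totals of reads on genes, and dividing by median-of-ratios factors again changed no call count. Reads carry no molecular identifiers, so their number limits the precision by counting error only.

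The 9 members, the 10 lists of cell type markers and the 4 lists of partners were chosen with earlier results of these data known. Genes whose mean over an experiment reached 0.5 FPKM were kept, and log2(FPKM + 1) was compared with limma 3.58.1 in R 4.3.3 (a linear fit per gene, with variances moderated along the intensity trend) between the groups of each experiment, without covariates. Fold changes on this scale understate those of low genes. A gene was called where the p adjusted by Benjamini-Hochberg over all genes kept was at most 0.05, and all 9 members passed the filter. The fit was tested on simulated data. Exact permutation tests were two-sided. Of each list of partners, up to 3 genes called in each direction with the largest change and a mean of at least 1 FPKM are named. The symbol Igsf5 names 2 rows and was left out, and 3 claudin symbols are not analysed here. For 11 genes the symbols differed between the tables, and those of saline and LPS were used. Groups came from the labels. In the second experiment libraries of equal number deviated together (correlations 0.25, 0.18 and 0.19), and the methods speak of littermates, so the number was used there as a block in an alternative fit. Within a group, libraries differed by a mean chi-square of at least 7.94 per gene, so none is a copy. Alternatives covered scaling, pseudocount, filter, fit and left-out libraries. Python 3.11.15, pandas 2.3.3, numpy 2.4.6, scipy 1.17.1 and matplotlib 3.10.9 served for tables, exact tests and plots.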

Additional observations from a re-analysis of the deposited data

Results flagged for a closer look

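In the saline group of 4 and the LPS group of 6 libraries, each value of the 9 junction genes and of the cell type lists was searched for a lone library, by the gap to its neighbour over the range of the group. Of 38 values 6 stood out, where about 1.9 would by chance alone (1 in 20). Of these, 3 are junction genes in saline 1. Tjp1 was lowest there, at 80.8 FPKM, where the other saline libraries held 106 to 110.3 FPKM. Jam2 was highest there, at 39.9 FPKM against 22.9 to 25.4 FPKM, and Ctnnb1 was highest, at 179.9 FPKM against 135 to 136 FPKM. The same library had the fewest reads of the first experiment (13478726) and the highest sums of the saline libraries for neutrophil (1401 FPKM), epithelial (2973 FPKM), macrophage (1197 FPKM), leukocyte (229 FPKM), mural, platelet and erythroid markers, and their part in these values was not tested. The mean of the endothelial markers was lowest in LPS 1, at 6.11 on the log2(FPKM + 1) scale against 6.79 to 7.19. In saline 3 the lymphocyte list was lowest, at 1.80 against 3.29 to 3.43, and so was the fibroblast list, at 2.21 against 2.70 to 2.77.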

How the results depend on the processing

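Scaling on endothelial markers left 1 junction gene called lower, with 6906 genes called higher and 914 lower of all genes after LPS, and scaling on Cdh5 also left 1, with 8330 and 664. A limit of 1 on the log2 fold change left 1 junction gene lower and 0 higher (of all genes 1011 lower and 1768 higher), and quantile normalization 0 higher. After LPS the replicate block (libraries 1 to 4 of each group) left 3 junction genes lower and 0 higher, with Cdh5 at a limma adjusted p of 0.0502. Of 15013 genes tested in that fit, 3418 were called higher and 2587 lower. However, numbers did not pair these libraries (correlations 0.07, -0.17, -0.16 and -0.09). In the second experiment the block changed no call. Log2 fold changes that turned after LPS were Cldn5 0.18, Esam 0.020, Jam2 0.21 and Ctnnb1 0.21 with scaling on endothelial markers, Cldn5 0.38, Esam 0.23, Jam2 0.41 and Ctnnb1 0.42 with scaling on Cdh5, and Cldn5 0.015 without saline 1 and 3, a choice made after seeing the data. Between genotypes, scaling on Cdh5 turned Cldn5 (-0.13), Ocln (-0.26), Tjp1 (-0.28), Esam (-0.20), F11r (-0.29), Jam2 (-0.45) and Ctnnb1 (-0.38). Scaling on endothelial markers turned Ocln (-0.025), Tjp1 (-0.030), F11r (-0.035), Jam2 (-0.20) and Ctnnb1 (-0.13), total reads turned Jam2 (-0.021) and quantile normalization Jam3 (0.011). Leaving out 1 library gave -0.059 to 0.40 for F11r, -0.088 to 0.15 for Jam2, -0.17 to 0.043 for Jam3, 0.051 to 0.37 for Ocln, 0.064 to 0.31 for Tjp1, 0.17 to 0.49 for Esam, 0.062 to 0.23 for Ctnnb1, 0.35 to 0.65 for Cdh5 and 0.28 to 0.49 for Cldn5 between genotypes. The same step after LPS gave 4 to 6 junction genes called lower and 1 higher, with 2890 to 3766 of all genes called lower and 3815 to 4606 higher. Without the filter on low values Esam and Ctnnb1 lost their calls after LPS (limma adjusted p = 0.068 and 0.056). The causes were not tested. Of 197 single-gene values under alternatives after LPS, 166 kept direction and call, as did 134 of 152 between genotypes. Cdh5 has no value when scaled on itself, and depth limits Jam3 most, with 59 reads at least.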

Other observations

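Over the 10 libraries of the first experiment, the genes whose log2(FPKM + 1) followed Cdh5 most closely among the 7764 genes that reached a mean of 5 FPKM were Zdhhc8, St3gal2 and Aplp2 (Pearson r 0.996, 0.991 and 0.990). For Ocln they were Cavin2, Sypl and Cav2 (0.993, 0.990 and 0.990), of which Cavin2 and Cav2 encode proteins of caveolae. For Cldn5 they were Creld1, Btg3 and Pde9a (0.960, 0.956 and 0.955). These are descriptions over libraries that share the difference between treatments.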
